A study of Mus musculus with 12 samples.

Results

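The genes of the mitochondrial respiratory chain and of ATP synthase were examined for 3 histone marks in mouse intestinal organoids, cultures grown from isolated crypts. The genes were the nuclear protein-coding genes whose RefSeq symbol begins with Nduf, Uqcr or Atp5, is one of Sdha, Sdhb, Sdhc and Sdhd, or is Cox followed by a number. This gave 105 of 21887 protein-coding genes. Grouped by symbol, they comprise 41 complex I subunits, 8 complex I assembly factors, 4 complex II subunits, 8 complex III subunits, 18 complex IV subunits, 9 complex IV assembly factors and 17 ATP synthase subunits. A peak belonged to a gene when it lay within 1000 bp of either annotated end of the gene, here called a gene-end peak. Of the 226396 peaks called with SEACR, a CUT&RUN peak caller, 251 met this rule. They were 111 of 58548 H3K4me3 peaks at 98 genes, 118 of 62547 H3K27ac peaks at 97 genes and 22 of 105301 H3K27me3 peaks at 18 genes.

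The organoids received AA at 25 µM or vehicle for 6 days, and CUT&RUN, a method that tethers a nuclease to an antibody and releases the DNA beside a chromatin mark, was run with 2 libraries per group and mark, 12 in all. AA stands for arachidonic acid, an omega-6 fatty acid. All cultures grew in Matrigel with EGF, Noggin, R-spondin, CHIR-99021 (a GSK3 inhibitor) and Y-27632 (a ROCK inhibitor), and the sample labels state neither genotype, sex nor age, whereas the text on the series design speaks of Ptger KO organoids. No label gives separate cultures or animals for the 2 libraries, so p-values reflect the scatter between these samples, and that scatter may be technical.

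The respiratory chain passes electrons from NADH, at complex I, and from succinate, at complex II, through complexes III and IV to oxygen, and complexes I, III and IV pump protons across the inner mitochondrial membrane. ATP synthase lets the protons flow back and makes ATP from ADP. Some subunits are made from the DNA of the mitochondrion itself, and all others come from nuclear genes such as those described here, which nearly every cell uses. A few subunits have paralogs restricted to muscle, testis or other tissues. H3K4me3 marks promoters, H3K27ac marks active promoters and enhancers, and H3K27me3 is the mark of Polycomb repressive complex 2. Promoters of respiratory chain genes in mammals are known for sites of NRF1, of ETS factors such as GABP (NRF-2), of YY1 and of the estrogen-related receptors (ERR).

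RefSeq (GRCm38.p6, the NCBI name of the mm10 build) gave promoter windows, from 250 bases before to 50 bases after the start, for 85 of the 105 genes, 91 windows in all. The following 280 bases of 5 of them are shown, read 5′ to 3′ on the strand of the gene. The first 3 belong to genes whose H3K4me3 passed the test described further on, and the last 2 to paralogs of striated muscle or brown fat that bore little H3K4me3 in the organoids. Capitals mark the motif letters found.
Ndufb3: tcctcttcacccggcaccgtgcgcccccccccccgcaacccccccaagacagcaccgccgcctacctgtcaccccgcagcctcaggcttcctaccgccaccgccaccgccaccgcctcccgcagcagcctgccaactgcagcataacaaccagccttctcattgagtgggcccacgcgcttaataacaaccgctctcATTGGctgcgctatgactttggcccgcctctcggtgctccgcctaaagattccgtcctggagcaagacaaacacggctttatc
Cox6a1: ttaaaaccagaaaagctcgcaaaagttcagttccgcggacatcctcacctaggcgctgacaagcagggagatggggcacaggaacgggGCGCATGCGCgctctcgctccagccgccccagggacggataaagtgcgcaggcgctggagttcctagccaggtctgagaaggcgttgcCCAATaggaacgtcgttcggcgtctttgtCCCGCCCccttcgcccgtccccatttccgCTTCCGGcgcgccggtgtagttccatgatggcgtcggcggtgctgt
Sdhd: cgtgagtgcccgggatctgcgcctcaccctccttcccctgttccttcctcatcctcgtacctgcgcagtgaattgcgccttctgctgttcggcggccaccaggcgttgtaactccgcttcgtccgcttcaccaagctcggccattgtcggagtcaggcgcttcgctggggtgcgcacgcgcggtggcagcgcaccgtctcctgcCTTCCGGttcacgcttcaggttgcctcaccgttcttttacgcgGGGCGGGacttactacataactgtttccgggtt
Cox7a1: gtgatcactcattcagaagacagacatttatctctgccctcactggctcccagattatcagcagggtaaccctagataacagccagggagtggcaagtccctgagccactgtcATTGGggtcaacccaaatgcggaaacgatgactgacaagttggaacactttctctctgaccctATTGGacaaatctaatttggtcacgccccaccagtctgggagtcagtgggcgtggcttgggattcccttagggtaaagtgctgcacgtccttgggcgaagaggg
Cox8b: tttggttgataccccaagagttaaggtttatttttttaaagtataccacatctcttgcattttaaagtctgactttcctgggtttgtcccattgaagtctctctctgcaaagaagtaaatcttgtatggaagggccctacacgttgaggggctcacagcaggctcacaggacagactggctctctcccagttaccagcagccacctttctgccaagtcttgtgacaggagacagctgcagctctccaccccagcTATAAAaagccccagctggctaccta
The stretches lie at chr1:58586147-58586426 (Ndufb3, + strand), chr5:115348929-115349208 (Cox6a1, − strand), chr9:50603820-50604099 (Sdhd, − strand), chr7:30183921-30184200 (Cox7a1, + strand) and chr7:140900417-140900696 (Cox8b, − strand). In the Ndufb3 stretch the capitals mark 1 CCAAT box, read on the opposite strand. In the Cox6a1 stretch they mark overlapping NRF1 half-sites of both strands, a CCAAT box, an SP1 motif and an ETS motif. The Sdhd stretch holds an ETS motif and an SP1 motif, and an ERR motif lies in the part of its window beyond the stretch shown. The Cox7a1 stretch holds 2 CCAAT boxes on the opposite strand. The Cox8b stretch holds the letters of a TATA box, whose first base is base 5 counted from the annotated start, so downstream of it. The whole windows held 22 CpG dinucleotides in Ndufb3, 32 in Cox6a1 and 29 in Sdhd, whereas Cox7a1 held 7 and Cox8b held 2. The ratio of observed to expected CpG was 0.909, 1.08 and 1.02 in the first 3 and 0.333 and 0.115 in the last 2.

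As a group, the promoter windows of the respiratory chain and ATP synthase genes were rich in CpG and in a few of the searched motifs. The median ratio of observed to expected CpG was 0.828 over the 91 windows and 0.567 over 21263 windows of all protein-coding genes. The 4 windows of tissue-restricted paralogs had a median of 0.382. Both strands were searched for fixed letters, and a match describes the letters alone. The comparison with all windows is not matched for CpG content, and the NRF1, ETS and SP1 letters each contain a CpG. The NRF1 half-site GCGCATGC was in 12 windows (13.2%, against 3.52% of all windows), the ETS motif CCGGAAG in 25 (27.5%, against 11.6%) and the YY1 motif AAGATGGC in 13 (14.3%, against 3.05%). At least 1 of these 3 motifs was in 41 of the 91 windows (45.1%), against 16.7% of all windows. The ERR motif TCAAGGTCA was in 2 windows, those of Atp5g3 and Sdhd (2.20%, against 0.334%). The SP1 motif GGGCGGG was in 37.4% of the windows and 33.9% of all windows, the CCAAT box in 41.8% and 38.2%, and the TATA box TATAAA in 10 windows and 12.6% of all. Windows of 1 gene with several starts count separately. An H3K4me3 peak covered or touched 88 of the 91 windows (96.7%, against 62.6% of all), an H3K27ac peak 87 (95.6%, against 48.5%) and an H3K27me3 peak 11 (12.1%, against 22.1%).

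**Figure D1:**
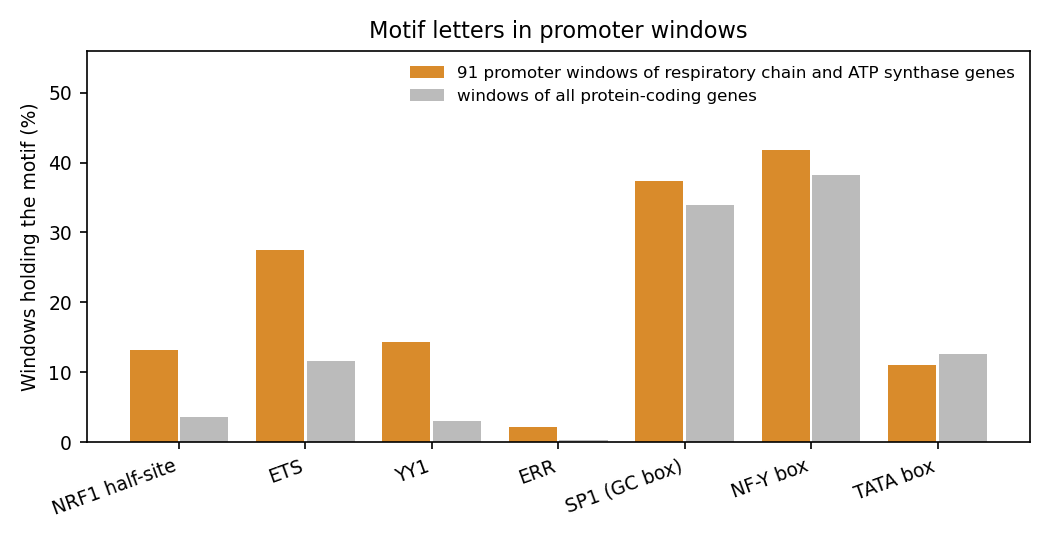
Share of promoter windows (250 bases before to 50 after the start) holding the letters of each motif on either strand, in percent, for 91 windows of respiratory chain and ATP synthase genes (orange, left) and 21263 windows of all protein-coding genes (grey, right). NRF1, ETS and YY1 letters were in 13.2%, 27.5% and 14.3% of the windows, against 3.52%, 11.6% and 3.05% of all windows, while SP1, NF-Y (CCAAT) and TATA boxes were about as frequent in both.

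The level of a mark is given as the peak score, the mean coverage per base of the peak scaled by 1 factor per library. Behind the median H3K4me3 peak of the 111 stood an unscaled coverage of 8.69 and 8.56 fragments per base in the AA libraries and 15.1 and 9.85 in the vehicle libraries. AA replicate 2 of H3K4me3 stood apart over all peaks, with a score of 158 on principal component 1 (48.8% of the variance), against -13.5 for AA replicate 1 and -70.2 and -74.0 for the vehicle libraries. All 8 epithelial marker genes had H3K4me3 and H3K27ac gene-end peaks, and no fibroblast or endothelial marker had an H3K27ac peak. In H3K4me3 a gene-end peak stood at 3 of 8 fibroblast markers, with summed scores of 0.945 and 0.737 in AA and 1.05 and 1.22 in vehicle libraries and a median log2 change of -0.74 (-0.84 to -0.07), at 2 of them with both AA libraries below both vehicle libraries. It stood at 2 of 4 endothelial markers, with changes of 1.95 at Tek and -0.90 at Kdr, and at 3 of 6 blood cell markers, with summed scores of 1.28 and 1.11 in AA and 0.909 and 1.08 in vehicle libraries. The blood cell markers differed in direction, with 0.64 at Cd79a, the only one of these fibroblast, endothelial and blood markers that limma called in H3K4me3 (adjusted p = 0.0388), and -0.22 at Spi1 and -0.39 at Itgam. Of 6 blood cell markers 2, of 5 muscle markers 1 and of 4 germ cell markers 0 had an H3K27ac peak. The changes at the 2 blood cell markers were -0.21 and 0.23, and 0 were called. The part of other cell types in the results was not tested. A larger share of marked cells and more mark per cell cannot be told apart in libraries of whole organoids.

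Of the 105 genes, 81 had gene-end peaks of H3K4me3 and H3K27ac without H3K27me3. All 3 marks were at the ends of 14 further genes, among them Cox5b, Ndufb9, Atp5g1 and Cox7b. Ndufa4l2 was among those with H3K4me3 and H3K27me3 but no H3K27ac gene-end peak. Cox6b2 had H3K4me3 alone, Cox8b and Cox7a2 had H3K27ac alone, and Cox4i2 and Ndufb4c had H3K27me3 alone. No mark had a peak at Cox7b2, Cox8c and Ndufb4b. Cox7a2 and Cox5a are near-misses of the rule, since strong peaks lay inside their annotated bodies, farther than 1000 bp from either annotated end. The H3K4me3 peak in Cox7a2 scored 1.15 and 1.04 in AA and 0.767 and 0.830 in vehicle libraries, and that in Cox5a 1.12 and 0.951 in AA and 0.785 and 0.776 in vehicle. Just inside the limit, 775 and 877 bp away, lay weak H3K4me3 peaks of Atp5e and Ndufv3, with scores between 0.0698 and 0.203. The gene-end values of Cox5a and Cox7a2 thus come from weak peaks.

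The comparison of AA with vehicle asked whether the marks at these genes differed after exposure to the fatty acid. H3K4me3 rose in AA at 5 genes, Ndufb3, Atp5a1, Cox6a1, Ndufb9 and Sdhd, which belong to complex I, ATP synthase, complex IV, complex I and complex II, and fell at none. A peak was called when the adjusted p of limma, a linear model fitted over all peaks of the mark, was under 0.05. Of all H3K4me3 peaks 1.54% were called higher and 1.38% lower. The calls lie among the most strongly marked genes, where calls were frequent throughout the genome. Of the strongest gene-end peaks of 14452 protein-coding genes, 5.45% were called higher, against 5.10% of those of the 98 genes here. The share of called genes was thus near that of all genes.

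Ndufb3, an accessory subunit of the membrane arm of complex I, had H3K4me3 scores of 1.36 and 1.42 in the AA libraries, against 0.971 and 0.936 in the vehicle libraries. Its peak, at chr1:58584271-58588708, differed by 0.53 ± 0.13 (log2, SE, adjusted p = 0.0091). Cox6a1, the widely expressed form of a small complex IV subunit, scored 1.34 and 1.33 in AA and 0.933 and 0.895 in vehicle, a change of 0.53 ± 0.14 (adjusted p = 0.0114, chr5:115345512-115350557). In both genes the AA libraries lay close together and above both vehicle libraries.

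Atp5a1, the alpha subunit of the catalytic head of ATP synthase, scored 1.74 and 1.49 in AA and 1.12 and 1.19 in vehicle, a change of 0.47 ± 0.12 (adjusted p = 0.0110). Ndufb9, another accessory subunit of the membrane arm of complex I, scored 1.51 and 1.33 in AA and 1.04 and 1.02 in vehicle, a change of 0.45 ± 0.13 (adjusted p = 0.0282, chr15:58931397-58936310). In Atp5a1 and Ndufb9 AA replicate 1 was the higher one, and both AA libraries lay above both vehicle libraries.

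Sdhd, a membrane anchor of succinate dehydrogenase, scored 1.49 and 1.57 in AA and 1.13 and 1.17 in vehicle at its start peak, a change of 0.41 ± 0.12 (adjusted p = 0.0403, chr9:50600468-50606582). The same peak reaches the ends of Timm8b, a chaperone gene of mitochondrial protein import, and of Nkapd1. Ends of Fam126b, Haus1 and Tatdn1 lie in reach of the called peaks of Ndufb3, Atp5a1 and Ndufb9, so that 4 of the 5 peaks cannot be given to 1 gene, and that of Cox6a1 can. Such sharing was common: 63 of the 111 H3K4me3 peaks (56.8%) had an end of another protein-coding gene in reach, against 2739 of 14450 gene-end peaks in all. At the 48 peaks with no other gene in reach 1 was called, and the median change was 0.20, against 0.30 at the 63 shared ones.

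With all libraries the 5 changes were 0.41 to 0.53, and when 1 library was left out all 5 stayed above 0 while the calls depended on which library it was. Such a fit has 1 library in an arm, and its spread comes from the pair that is left. Without vehicle replicate 1, with the spread of the AA pair, the 5 changes were 0.39 to 0.56. Without vehicle replicate 2 they were 0.43 to 0.52. In these fits the 5 were not called, and hardly any of all H3K4me3 peaks was. Losing the calls thus says nothing about these genes in particular. Without AA replicate 1, with the spread of the vehicle pair, the 5 changes were 0.36 to 0.56. Without AA replicate 2, the library that stood apart, they were 0.37 to 0.58. All 5 were called in these last 2 fits, which also called 2974 and 6834 of all H3K4me3 peaks higher, against 904 with all libraries, so that keeping the calls says nothing about their stability. Among the peaks of these genes they called 24 higher and 2 lower, and 57 higher. None of the 5 passed after quantile normalization (adjusted p 0.0678 to 0.742). With limma run without its trend and robust options none passed either (adjusted p 0.508 to 0.562). That fit called 0 of all 58548 H3K4me3 peaks, so its outcome says nothing about these 5 in particular.

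**Figure D2:**
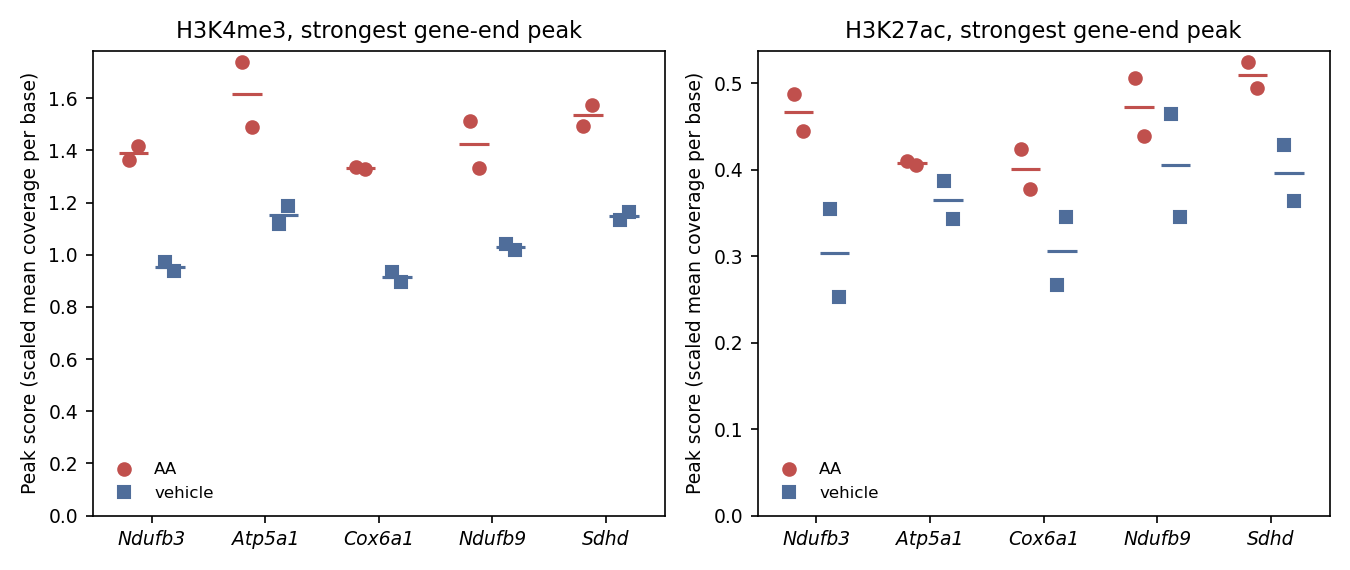
Peak scores (scaled mean coverage per base, axis from 0) of the strongest gene-end peak at the 5 genes called higher in H3K4me3, for H3K4me3 (left) and H3K27ac (right); circles are the 2 AA libraries, squares the 2 vehicle libraries and short lines their means. In H3K4me3 both AA libraries lie above both vehicle libraries at all 5 genes, and in H3K27ac at all but Ndufb9.

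Beyond the calls, H3K4me3 scores were mostly above those of vehicle. Both AA libraries exceeded both vehicle libraries at 80 of the 111 peaks, and both lay below at 3, weak peaks of Cox6a2, Sdhd and Cox4i1. Over all H3K4me3 peaks these shares were 18.3% and 30.5%, and over all gene-end peaks 42.7% and 17.4%. The median change of the 111 peaks was 0.26 (from -0.85 to 0.53), against -0.19 over all peaks and 0.15 over gene-end peaks. With 1 peak per gene, the median was 0.27 over the 98 genes and 0.20 over 14452 genes, at 51.0% of which both AA libraries were above both vehicle libraries. That share is the background of the H3K4me3 counts by complex and by gene list given after it, and it is not matched for the level of the mark. Among strongly marked gene-end peaks the share was larger, up to 87.8% in the strongest of 10 level groups, as the next paragraph shows. At an unadjusted limma p under 0.05, 37 of the 111 peaks were higher and 0 lower, against 3043 and 835 of all 14450 gene-end peaks. AA replicate 1 was the highest of the 4 libraries at 87 of the 111 peaks and AA replicate 2 at 16. Over all 14450 gene-end peaks these numbers were 8932 and 1190.

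The change moved with the level of the mark, and the peaks of these genes are strong, with a median percentile of 92.6 among all H3K4me3 peaks. Gene-end peaks were ranked by mean score into 10 equal groups, in which the median change of all peaks ran from -0.52 in the weakest to 0.33 in the strongest. The strongest group, scores above 1.04, held 19 of the 111 peaks. There 17 of the 19 lay above vehicle without overlap and 5 were called, against 87.8% and 22.9% of all peaks in that group. In the next group both AA libraries were above both vehicle libraries at 18 of 20 peaks, against 77.9% of all, and in the groups below at 17 of 21 against 69.7%, at 10 of 12 against 61.3% and at 14 of 19 against 48.0%. The median changes in these 5 groups, from the strongest down, were 0.32, 0.35, 0.27, 0.27 and 0.29 for the respiratory chain and ATP synthase peaks and 0.33, 0.28, 0.26, 0.22 and 0.18 for all peaks. None of the 20 peaks in the 5 weakest groups was called.

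**Figure D3:**
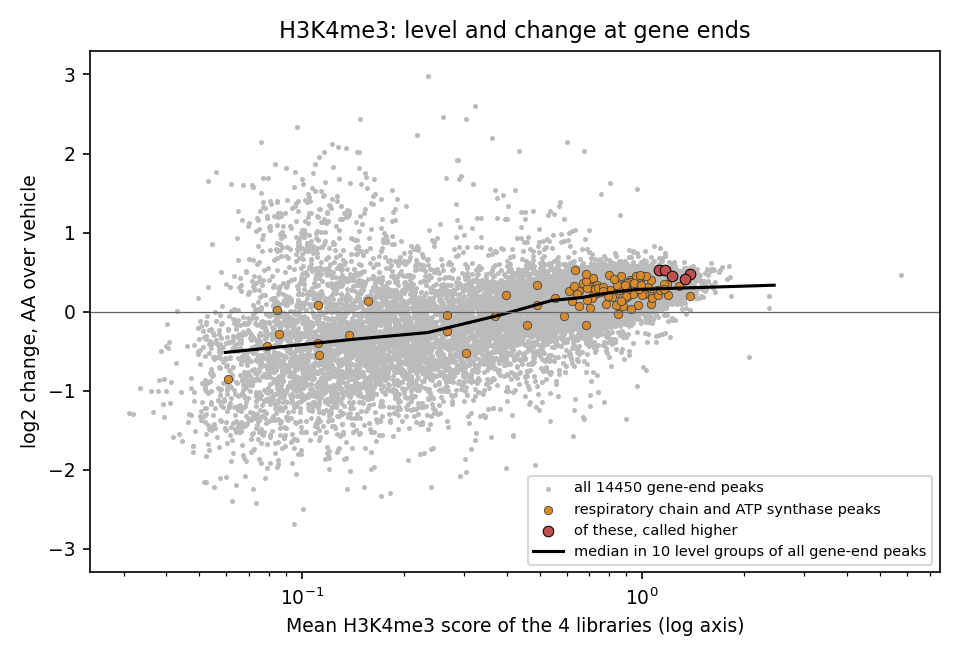
Change in H3K4me3 (log2, AA over vehicle) against the mean score of the 4 libraries (log axis) for all 14450 gene-end peaks (grey), the 111 peaks of respiratory chain and ATP synthase genes (orange) and the 5 of them called higher (red); the line joins the medians of 10 level groups of all gene-end peaks. The line runs from -0.52 to 0.33, and the 5 called peaks lie at the strong end, with mean scores above 1.04.

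Complex I takes electrons from NADH. Of the 41 genes counted by symbol as its subunits, 39 had an H3K4me3 gene-end peak and 2 were called higher. Both AA libraries were above both vehicle libraries at 29, with a median change of 0.23. The 41 include Ndufa4, a subunit of complex IV despite its name, its paralog Ndufa4l2, and Ndufb4b and Ndufb4c, by name relatives of Ndufb4. Next to the 2 called genes stood Ndufs5, an accessory subunit, with 0.997 and 0.869 in AA and 0.647 and 0.693 in vehicle (0.46, adjusted p = 0.106). Ndufs8, which carries iron-sulfur clusters, had the strongest peak of the complex, with 1.56 and 1.39 in AA and 1.26 and 1.30 in vehicle (0.20, adjusted p = 0.409). That peak is at its annotated end and also reaches Tcirg1. Among 7 catalytic core subunits with a peak the median change was 0.21 and none was called. The groups overlapped at Ndufa5, with 0.986 and 0.891 in AA and 0.879 and 0.962 in vehicle, and at Ndufa9, with 0.931 and 0.756 in AA and 0.877 and 0.833 in vehicle. Of the 8 assembly factors of complex I, which help build it and leave it, 7 lay above vehicle without overlap, with a median of 0.35 and no call. Ndufaf7, a methyltransferase that acts on a core subunit, had 1.24 and 1.09 in AA and 0.800 and 0.890 in vehicle (0.45, adjusted p = 0.0614). Ndufaf5, the assembly factor with the strongest peak, had 1.14 and 1.13 in AA and 1.03 and 0.982 in vehicle (0.17, adjusted p = 0.563). Ndufaf6 was the exception, with 0.730 and 0.558 in AA and 0.784 and 0.667 in vehicle.

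Complex II, succinate dehydrogenase, is also an enzyme of the tricarboxylic acid cycle. All 4 of its genes lay above vehicle without overlap in H3K4me3, and Sdhd alone was called. Sdha, the flavoprotein, had 1.19 and 0.954 in AA and 0.860 and 0.784 in vehicle (0.37, adjusted p = 0.177). Sdhc, the other membrane anchor, had 0.764 and 0.917 in AA and 0.679 and 0.717 in vehicle (0.25, adjusted p = 0.469). Sdhb, the iron-sulfur protein, had 0.922 and 0.779 in AA and 0.764 and 0.714 in vehicle (0.19, adjusted p = 0.587). A second Sdhd peak, at the far end of the gene, ran the other way, with 0.244 and 0.248 in AA and 0.359 and 0.369 in vehicle (-0.52, adjusted p = 0.368).

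Complex III passes electrons from ubiquinol to cytochrome c. Both AA libraries were above both vehicle libraries at 7 of its 8 genes, with a median change of 0.31 and no call. Uqcrc1, a large core protein, had 0.904 and 0.706 in AA and 0.577 and 0.556 in vehicle (0.48, adjusted p = 0.135). Uqcrb, a small subunit near the ubiquinone site, had 1.22 and 1.08 in AA and 0.836 and 0.821 in vehicle (0.46, adjusted p = 0.0599). Uqcrh, the acidic hinge protein and the gene with the highest mean score, had 1.35 and 1.20 in AA and 1.03 and 1.05 in vehicle (0.29, adjusted p = 0.253). The groups overlapped at Uqcrq, with 0.806 and 0.626 in AA and 0.778 and 0.606 in vehicle.

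Complex IV, cytochrome c oxidase, had a median change of 0.10 over 13 subunit genes with a peak, of which Cox6a1 was called and 8 lay above vehicle without overlap. Among the 13 are the tissue-restricted Cox6a2 (-0.85), Cox7a1 (-0.25) and Cox6b2 (-0.04) and the weak end peak of Cox5a (0.02). Without these 4, a choice made after the values were seen, the median of the other 9 was 0.26. Cox4i1, a nuclear subunit that joins the catalytic core early, had 1.09 and 0.879 in AA and 0.789 and 0.780 in vehicle (0.31, adjusted p = 0.310). Cox8a, whose groups lay close, had 1.02 and 0.978 in AA and 0.963 and 0.927 in vehicle (0.08, adjusted p = 0.800). Over the 9 assembly factors the median was 0.17, and 5 lay above vehicle without overlap. Cox16, which helps insert a core subunit made in the mitochondrion, had 1.07 and 0.944 in AA and 0.694 and 0.765 in vehicle (0.45, adjusted p = 0.0973). Cox11, which delivers copper, had 0.847 and 0.799 in AA and 0.624 and 0.593 in vehicle (0.42, adjusted p = 0.191). At Cox17, the copper chaperone that feeds it, the groups overlapped, with 0.671 and 0.494 in AA and 0.612 and 0.590 in vehicle. Cox10, which makes heme O on the way to heme A, had 1.03 and 0.918 in AA and 0.818 and 0.861 in vehicle at its start (0.20, adjusted p = 0.531).

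ATP synthase subunits had a median change of 0.33 over 17 genes, at 15 of which both AA libraries were above both vehicle libraries. Besides Atp5a1, Atp5j2, the f subunit of the membrane part, had 1.15 and 1.09 in AA and 0.828 and 0.794 in vehicle (0.45, adjusted p = 0.0736). The c subunit, whose copies form the rotor ring, is encoded by 3 genes for the same mature protein. Atp5g1 had 1.24 and 1.18 in AA and 0.940 and 0.891 in vehicle (0.39, adjusted p = 0.102). Atp5g2 had 0.904 and 0.700 in AA and 0.685 and 0.571 in vehicle (0.33, adjusted p = 0.339), and Atp5g3 had 0.966 and 0.861 in AA and 0.775 and 0.733 in vehicle (0.27, adjusted p = 0.415). The 3 genes thus gave the same order of groups, none with a call. Atp5h, the d subunit of the stalk, had its largest change at a second peak that also reaches the start of Mrpl58, with 0.799 and 0.711 in AA and 0.526 and 0.503 in vehicle (0.53, adjusted p = 0.106).

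**Figure D4:**
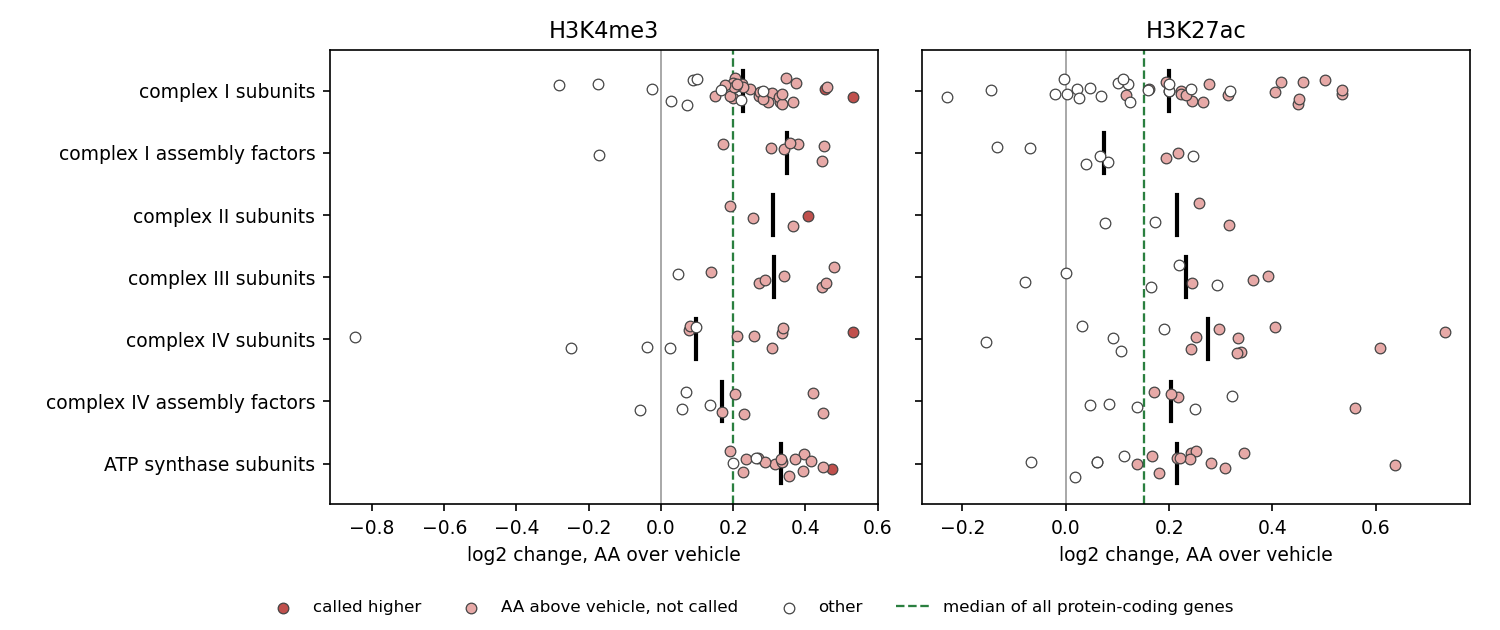
Change (log2, AA over vehicle) in H3K4me3 (left) and H3K27ac (right) at the strongest gene-end peak of each gene, by complex; dark red points were called higher, light red points had both AA libraries above both vehicle libraries, short bars are group medians and the dashed line is the median of all protein-coding genes. In H3K4me3 the medians run from 0.10 in complex IV subunits to 0.35 in complex I assembly factors, with the dashed line at 0.20; without 3 tissue-restricted genes and Cox5a the complex IV subunits stand at 0.26, and the order of the groups changes after quantile normalization.

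These medians depend on how the libraries are scaled. With the median of all H3K4me3 peaks set equal between libraries, the median over the 98 genes was 0.48 and 54 were called higher. Of 14450 gene-end peaks of all genes, 4301 were then called higher and 121 lower, with a median of 0.37. With the median of the strongest 25% of peaks set equal, the 98 genes had a median of 0.11 and 12 were called higher. All gene-end peaks then had a median of -0.0014, with 1106 called higher and 925 lower. With the deposited scaling 634 of them were called higher and 184 lower, with a median of 0.15. Higher calls thus also rose over gene-end peaks in general under either centring. After quantile normalization the 98 genes had a median of 0.05, with 64 above 0 and 0 called. All gene-end peaks had 0.014, with 404 called higher and 517 lower. The median of complex IV subunits turned to -0.06 when centred on the strongest peaks, and that of the complex IV assembly factors to -0.05 after quantile normalization. The order of the complexes also depended on it: after quantile normalization the subunits of complex IV had a median of 0.08, against 0.02 in complex I, 0.06 in complex II, 0.02 in complex III and 0.10 in ATP synthase.

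Several subunits have a widely expressed and a restricted form, and their scores, which are per base of the peak, are set side by side here without a test. The restricted genes Cox6a2, Cox7a1 and Cox8b belong to striated muscle or brown fat, Cox6b2, Cox7b2 and Cox8c to testis, Cox4i2 to lung and oxygen-sensing cells, and Ndufa4l2 is induced by hypoxia. For H3K4me3, Cox6a1 scored 1.34 and 1.33 in AA and 0.933 and 0.895 in vehicle, while Cox6a2 scored 0.0375 and 0.0287 in AA and 0.0450 and 0.131 in vehicle. Cox6b1 scored 0.570 and 0.535 in AA and 0.452 and 0.412 in vehicle, while Cox6b2 scored 0.298 and 0.230 in AA and 0.239 and 0.303 in vehicle. In both pairs each library of the widely expressed form was above each library of the restricted form.

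Ndufa4, a small subunit of cytochrome c oxidase despite its name and counted with complex I here by its symbol, scored 1.09 and 0.931 in AA and 0.956 and 0.777 in vehicle for H3K4me3. Its hypoxia-induced paralog Ndufa4l2 scored 0.556 and 0.321 in AA and 0.536 and 0.431 in vehicle and had no H3K27ac gene-end peak. Cox7a2l, a factor of supercomplex assembly, scored 1.20 and 1.01 in AA and 1.00 and 1.05 in vehicle. Cox7a1, its muscle and brown fat relative, scored 0.339 and 0.160 in AA and 0.303 and 0.265 in vehicle. Cox7b, on the X chromosome, scored 0.399 and 0.462 in AA and 0.374 and 0.362 in vehicle. Cox4i2, Cox7b2, Cox8b and Cox8c had no H3K4me3 gene-end peak. None of the restricted forms was called in any mark, and in H3K4me3 their libraries overlapped between the groups at Cox6b2, Cox7a1 and Ndufa4l2.

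**Figure D5:**
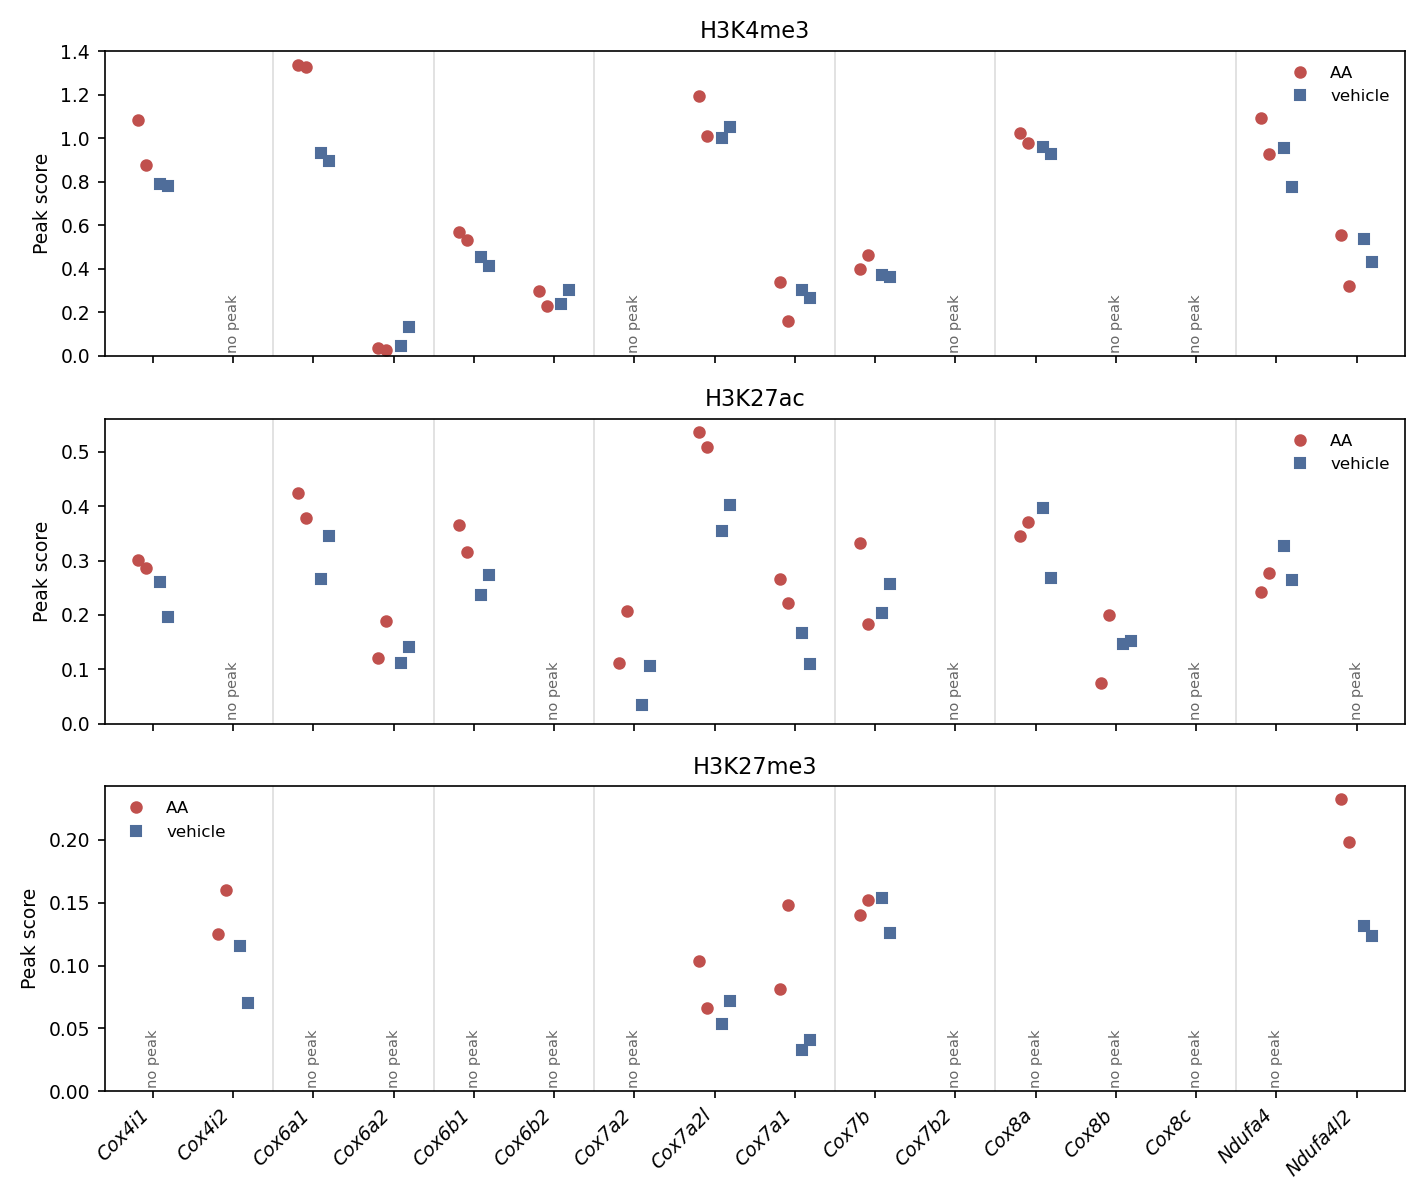
Peak scores of widely expressed and tissue-restricted subunit genes in H3K4me3, H3K27ac and H3K27me3 (axes from 0, strongest gene-end peak); circles are the 2 AA libraries, squares the 2 vehicle libraries, and grey lines separate the paralog families. The H3K4me3 scores of Cox6a1 lie at 1.34 and 1.33 in AA and 0.933 and 0.895 in vehicle, while its paralog Cox6a2 stays at or under 0.131 in all 4 libraries.

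In H3K27ac no peak of these genes was called, at 118 peaks and 97 genes, where 0.155% of all H3K27ac peaks were called higher and 0.0448% lower by limma. At an unadjusted limma p under 0.05, 17 peaks were higher and 0 lower, against 1245 and 106 of all 12732 gene-end peaks. Both AA libraries were above both vehicle libraries at 56 of the 118 peaks and below at 3, against 28.5% and 10.7% of all peaks and 37.5% and 6.41% of gene-end peaks. The median change was 0.20, against 0.11 over all peaks and 0.14 over gene-end peaks. Unscaled coverage at the median peak ran from 2.89 to 4.70 fragments per base over the 4 libraries, which limits what could be found.

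The lowest adjusted p in H3K27ac was that of Cox16, 0.115, with scores of 0.542 and 0.408 in AA and 0.233 and 0.374 in vehicle (0.56). Ndufb3, called in H3K4me3, had 0.487 and 0.445 in AA and 0.354 and 0.253 in vehicle (0.53, adjusted p = 0.162). Ndufa2, an accessory subunit at the NADH end of complex I, had 0.432 and 0.433 in AA and 0.298 and 0.258 in vehicle (0.54, adjusted p = 0.204). In all 3 genes both AA libraries were the higher ones.

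Atp5e, the epsilon subunit of the central stalk, had 0.349 and 0.316 in AA and 0.210 and 0.170 in vehicle (0.64, adjusted p = 0.253). Cox7a1, weak in H3K4me3, had 0.266 and 0.222 in AA and 0.167 and 0.109 in vehicle (0.61, adjusted p = 0.594). Cox7a2l, the complex IV gene with the most acetylation, had 0.536 and 0.509 in AA and 0.354 and 0.402 in vehicle (0.41, adjusted p = 0.352). Among the strongest peaks of the other complexes, Uqcrb had 0.571 and 0.387 in AA and 0.412 and 0.335 in vehicle (0.29, adjusted p = 0.658), and Atp5md, a small membrane subunit of ATP synthase, had 0.479 and 0.406 in AA and 0.363 and 0.363 in vehicle (0.24, adjusted p = 0.747). Sdhd, the most acetylated complex II gene, had 0.524 and 0.494 in AA and 0.428 and 0.364 in vehicle (0.32, adjusted p = 0.576). The widest changes stood at weak peaks, a second peak of Cox4i1 with 0.194 and 0.173 in AA and 0.0559 and 0.109 in vehicle (0.76, adjusted p = 0.695), and the end peak of Cox7a2 with 0.111 and 0.208 in AA and 0.0337 and 0.106 in vehicle (0.73, adjusted p = 0.763). The 3 peaks at which both AA libraries were the lower ones were a second Ndufb9 peak, with 0.0973 and 0.0746 in AA and 0.144 and 0.215 in vehicle, Ndufs5, with 0.205 and 0.224 in AA and 0.262 and 0.265 in vehicle, and Uqcr11, with 0.323 and 0.302 in AA and 0.343 and 0.325 in vehicle.

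The level of the 2 active marks went together across genes, and their changes did not. Over the 95 genes with gene-end peaks in both, vehicle scores of H3K4me3 and H3K27ac had a Pearson correlation of 0.62 and a Spearman correlation of 0.54, while the changes had -0.03 and 0.06. The points share their libraries within each mark, and genes are not independent replicates. The change was above 0 in both marks at 81 of the 95 genes, and the groups did not overlap, with AA higher, in both marks at 41. Over the 11367 genes with both marks these shares were 68.6% and 29.0%. Ndufs5 shows the difference between the marks, with both AA libraries above vehicle in H3K4me3 and both below in H3K27ac.

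H3K27me3 was scarce at these genes. Of the 105 genes 18 had a gene-end peak, and the 22 peaks had a median percentile of 19.2 among all H3K27me3 peaks. None was called by limma. Of all H3K27me3 peaks 0.498% were called higher and 0.0475% lower, and of all gene-end peaks 2.19% and 0.175%. At an unadjusted limma p under 0.05, 2 of the 22 were higher and 0 lower, against 1375 and 255 of all 9706 gene-end peaks. Both AA libraries were above both vehicle libraries at 7 of the 22 and below at 2. Those shares were 26.3% and 13.4% over all peaks and 35.4% and 14.4% over gene-end peaks. The median change was 0.21, against 0.12 over all peaks and 0.15 over gene-end peaks.

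By their strongest peak, averaged over the 4 libraries, the highest H3K27me3 scores stood at Ndufa4l2, Ndufb4c, Cox7b and Cox4i2, in this order. Ndufa4l2 had 0.233 and 0.198 in AA and 0.131 and 0.123 in vehicle, over 7191 bp that also reach Stac3 (0.63, adjusted p = 0.392). Ndufb4c, by its name a relative of the accessory subunit gene Ndufb4, had 0.186 and 0.272 in AA and 0.128 and 0.0483 in vehicle (1.17, adjusted p = 0.137). Cox4i2 had 0.125 and 0.160 in AA and 0.116 and 0.0705 in vehicle (0.50, adjusted p = 0.788). In Ndufa4l2, Ndufb4c and Cox4i2 both AA libraries were the higher ones. Cox7b had 0.140 and 0.152 in AA and 0.154 and 0.126 in vehicle over its 4501 bp peak, with overlapping groups. Atp5j2 had 0.0297 and 0.0198 in AA and 0.158 and 0.0921 in vehicle (-1.43, adjusted p = 0.533), a weak peak at a start with strong H3K4me3. It and Ndufa7, with 0.0262 and 0.0397 in AA and 0.0506 and 0.0462 in vehicle, were the 2 genes with both AA libraries lower. Cox7a1, at its annotated end, had 0.0814 and 0.148 in AA and 0.0327 and 0.0405 in vehicle (1.05, adjusted p = 0.684). The highest scores of the other complexes were low, with 0.0598 and 0.0469 in AA and 0.0622 and 0.0352 in vehicle at Uqcr10 and 0.0492 and 0.228 in AA and 0.0693 and 0.0553 in vehicle at Cox15.

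Outside the gene ends, 1 of 8 H3K27me3 peaks inside these genes, in Cox10, was called higher, against 0.498% of all H3K27me3 peaks. It is 592 bp long, at chr11:64021553-64022144, with 0.284 and 0.126 in the AA libraries and listed at 0 in both vehicle libraries (adjusted p = 0.0452). With 0 in vehicle, the size of its change depends on the pseudocount of 0.0329 added to every score. Median unscaled coverage over all H3K27me3 peaks was 1.19 to 1.85 fragments per base, so few fragments stand behind such peaks. The Cox10 peak was not followed under the alternative settings. The other peaks inside the bodies of these genes, 30 of H3K4me3, 52 of H3K27ac and 7 of H3K27me3, gave no call.

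Respiratory chain genes that the name rule leaves out, such as those of cytochrome c and of further assembly factors, are set beside them here. In H3K4me3 all 40 had an H3K4me3 gene-end peak, with a median change of 0.29, 3 calls higher and 0 lower, and AA above vehicle without overlap at 31. The called genes were Coa3, an assembly factor of complex IV, with 1.12 and 1.00 in AA and 0.757 and 0.687 in vehicle (0.54, adjusted p = 0.0321), Pet117, another, with 1.54 and 1.22 in AA and 0.986 and 0.991 in vehicle (0.46, adjusted p = 0.0294), and Uqcc3, an assembly factor of complex III, with 1.53 and 1.25 in AA and 0.989 and 1.06 in vehicle (0.43, adjusted p = 0.0466). In H3K27ac 0 were called, and the median was 0.21. In H3K27me3 the 12 of them with a gene-end peak had a median of -0.36, with 2 above and 6 below vehicle without overlap, against 0.19 over the 18 genes of the name rule. Of the 12, Tmem126b, an assembly factor of complex I, was called higher, with 0.399 and 0.273 in AA and 0.193 and 0.199 in vehicle (0.67, adjusted p = 0.00647). Over the strongest H3K27me3 gene-end peaks of 7705 genes, 2.89% were called higher and the median change was 0.15. There AA was above vehicle without overlap at 37.7% and below at 14.9%.

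Genes of the tricarboxylic acid cycle and pyruvate dehydrogenase, which supply the chain with NADH, had 2 H3K4me3 calls higher and 0 lower among 20, with a median change of 0.27. They were Dlst, the transferase of the oxoglutarate dehydrogenase complex (0.54, adjusted p = 0.0116), and Pdhx, the binding protein of pyruvate dehydrogenase (0.45, adjusted p = 0.0163). Of 20 genes of mitochondrial carriers, import and coupling 1 was called higher, Phb2, a prohibitin (0.41, adjusted p = 0.0350), with a median of 0.29. Of 21 genes of mitochondrial biogenesis and mitochondrial DNA expression 0 were called, with a median of 0.25 and 16 above vehicle without overlap. Some of their peaks are also peaks of the name-rule genes. Gabpa shares its H3K4me3 and H3K27ac peaks with Atp5j, and Mterf3 its H3K27ac peak with Uqcrb. Of 19 glycolysis genes with a peak 0 were called, with a median of 0.08, 7 above and 4 below vehicle without overlap. In H3K27ac none of the 5 lists had a call, and the glycolysis genes had a median of 0.27, with 13 of 18 above vehicle without overlap. Over the strongest gene-end peaks of all genes the medians were 0.20 in H3K4me3 and 0.15 in H3K27ac, AA was above vehicle without overlap at 51.0% and 41.4% and below at 13.9% and 5.06%, and 5.45% and 0.278% were called higher. These values of all genes are not matched to the lists for the level of the mark.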

How the data were processed

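The deposited signal is a peak score, 1 per peak and library, which the authors computed for their SEACR and MACS2 peak sets; these tools and mm10 are named per the submitters' processing notes. The aligner, the scaling and any version number were not given in the sources used here. Checked on the values, multiplying a score by its peak's length gave a whole number of library-specific steps for at least 99.99% of values below 1000 steps (within 0.1 step), so unscaled coverage is score over step. Rows named as control were taken as vehicle. Gene ends and promoter windows came from RefSeq tables of the same build; 19 of the 111 H3K4me3 peaks belong to genes whose strand was not known.

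Differences between AA and vehicle were tested with limma 3.58.1 (R 4.3.3), with its trend and robust options, on log2(score + pseudocount), fitted over all SEACR peaks of a mark with the deposited scaling and Benjamini-Hochberg adjustment at 0.05. The pseudocount was the 5th percentile of positive values, 0.0253 (H3K4me3), 0.0693 (H3K27ac) and 0.0329 (H3K27me3), which understates changes of weak peaks. The script was tested on simulated data. Alternatives were other centring, quantile normalization, pseudocounts, the strongest 50% of peaks, MACS2 peaks, no trend or robust option, a threshold of 0.01, 500 bp, 1 peak per gene, a replicate block and each library left out.

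Named genes are called ones, the highest score of each complex, the 5 largest changes each way without overlap, and fixed genes (complex II, paralogs, the c subunit, Cox10). Ndufs5, Ndufa5, Ndufa9, Ndufaf6, Ndufaf7, Uqcrb, Uqcrq, Cox11, Cox17, Cox16 and Atp5j2 in H3K4me3 and Ndufb3 and Ndufa2 in H3K27ac were added with values seen. The members, lists and rules were chosen with earlier results of these data known. Values of 1 member gene are not reported here.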

Additional observations from a re-analysis of the deposited data

How the results depend on the processing

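With 2 libraries per group and few fragments per base at weak peaks, small changes were not detectable. For H3K4me3 the 5 higher calls became 59 (median change 0.48) when centred on the median of all peaks, 13 (median 0.11, and 1 lower call, the second Sdhd peak) when centred on the strongest 25% of peaks, 1 (median 0.061) after quantile normalization, 12 (median 0.34) with MACS2 peaks, 1 at a threshold of 0.01, and 0 with limma run without trend and robust; the cause was not tested. Leaving out 1 library gave 0 to 57 higher and 0 to 2 lower calls, with medians of 0.18 to 0.33. For H3K27ac the median moved to 0.12 and 0.054 under the 2 centrings, to 0.064 after quantile normalization and to 0.29 with MACS2 peaks, and was 0.16 to 0.24 without 1 library, with 0 to 1 higher calls and 0 lower ones. For H3K27me3 it moved to -0.012 when centred on the strongest peaks and to 0.50 with the strongest 50% of peaks, and was 0.14 to 0.51 without 1 library, with no call; no MACS2 peak of that mark lay at these genes. The pseudocounts, 500 bp and 1 peak per gene changed none of these values beyond the spread between libraries. Of all H3K4me3 peaks the centring on the median of all peaks moved the calls to 5557 higher and 549 lower, against 904 and 806, and that on the strongest 25% to 1496 and 3950. Among all MACS2 gene-end peaks of H3K4me3, 1237 of 14815 were called higher. Without its trend and robust options limma called 0 of all 58548 H3K4me3 peaks.

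Same-numbered libraries did not deviate together (correlation -0.0023 in H3K4me3, 0.0085 in H3K27ac and 0.0025 in H3K27me3), and the labels pair nothing. With replicate number as a block, limma gave 13 higher calls in H3K4me3 and 2 in H3K27ac. Calls rose over all peaks too, to 1596 of 58548 H3K4me3 peaks and 243 of 62547 H3K27ac peaks called higher. Of these, 1209 and 94 were gene-end peaks.

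Under another scaling the change of some genes took the other sign, by their strongest peak. Centred on all peaks it did so at 5 of 98 genes in H3K4me3, 12 of 97 in H3K27ac and 4 of 18 in H3K27me3, centred on the strongest peaks at 14, 25 and 4, and after quantile normalization at 30, 21 and 3. Of the genes named by rule, these were, centred on all peaks, Cox6b2 (0.18) and Ndufa4l2 (0.040) in H3K4me3, Atp5g2 (-0.012) in H3K27ac, and Uqcr10 (-0.014), Cox7b (-0.055) and Atp5g2 (-0.060) in H3K27me3. Centred on the strongest peaks they were Cox7a2l (-0.058) and Cox8a (-0.074) in H3K4me3, Atp5g2 (-0.083), Cox7b (-0.051), Cox8a (-0.036) and Sdha (-0.068) in H3K27ac, and Uqcr10 (-0.13), Cox7b (-0.17) and Atp5g2 (-0.18) in H3K27me3. After quantile normalization they were Ndufs8 (-0.14), Ndufaf5 (-0.12), Uqcrh (-0.024), Cox10 (-0.048), Cox6b2 (0.055), Cox7a2l (-0.20), Cox8a (-0.19), Ndufa4 (-0.039) and Sdhb (-0.017) in H3K4me3, Atp5g2 (-0.068), Cox7b (-0.013), Cox8a (-0.028) and Sdha (-0.063) in H3K27ac, and Cox7b (-0.11) and Atp5g2 (-0.017) in H3K27me3. Without 1 library the change spanned -0.21 to 0.13 at Cox6b2, -0.74 to 0.24 at Cox7a1, -0.022 to 0.22 at Cox7a2l and -0.55 to 0.20 at Ndufa4l2 in H3K4me3, -0.13 to 0.25 at Atp5g2, -0.028 to 0.41 at Cox6a2, -0.25 to 0.43 at Cox7b, -0.13 to 0.34 at Cox8a and -0.61 to 0.30 at Cox8b in H3K27ac, and -0.15 to 0.34 at Uqcr10, -0.063 to 0.17 at Cox7b, -0.21 to 1.46 at Cox15 and -0.63 to 0.73 at Atp5g2 in H3K27me3.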
